A study of Mus musculus with 12 samples.

Results

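The genes described here are 40 genes of the cell's response to amino acid shortage and to misfolded protein. They form 2 arms, which were described apart. The ATF4 arm has 19 genes: the transcription factor Atf4 and known targets and partners. The endoplasmic reticulum (ER) arm has 21 genes: the sensors of the unfolded protein response and the chaperones and degradation factors they control. All 40 were matched by gene symbol among the 53819 genes in each count file, and 39 were among the 13151 genes with enough reads to be tested. Vldlr, a lipoprotein receptor of the ATF4 arm, had 0 to 0.457 CPM (counts scaled to a common library size, with TMM, trimmed mean of M values, factors) in the 12 libraries and was not tested.

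RNA was sequenced in bulk from bone marrow monocytes of wild-type (WT) C57Bl6J mice in 4 groups of 3 libraries. Untreated cells received neither agent. The platelet group was incubated overnight with platelets and washed. The LPS group received lipopolysaccharide (LPS), the bacterial outer membrane component sensed by Toll-like receptor 4. The platelet plus LPS group was incubated overnight with platelets, washed and then stimulated with LPS. Strain, genotype and tissue are the same in all 4 groups, and neither doses nor the length of the LPS exposure are stated. Separate mice or cultures are not named for the 3 libraries of any group. The p-values therefore measure only how far these libraries vary, and that variation may be technical.

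ATF4 acts in the integrated stress response. Kinases that sense amino acid lack, ER stress, viral RNA or haem shortage phosphorylate the translation factor eIF2, which slows most protein synthesis while Atf4 messenger RNA is translated more. ATF4 then raises genes for amino acid synthesis and transport and, with partners such as CHOP, genes that restore translation or promote cell death. In the unfolded protein response the ER membrane sensors PERK, IRE1 and ATF6 detect misfolded protein, and the spliced form of XBP1 and cleaved ATF6 raise chaperones and degradation factors. Macrophages are known to use parts of both responses during Toll-like receptor signalling. Counts per gene do not show ATF4 protein, cleaved ATF6 or spliced Xbp1.

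Library totals ran from 20060867 to 32155727 counts, so that 3 counts correspond to 0.0854 to 0.163 CPM. Platelet replicate 1 carries the word "Control" in 1 of its labels, although its title and treatment put it with the platelets. It also stood apart. Chi-square divided by its degrees of freedom was 69.1 and 75.8 between it and the other platelet libraries and 6.29 to 19.8 for all other pairs within groups, and mitochondrial genes took 0.886% of its counts against 0.431 to 0.600% elsewhere. Results for the platelet comparisons are therefore also given without it. Monocyte markers (10 genes, none at 0 throughout a group) summed to 34862 to 44107 CPM. Markers of other cell types moved with the groups. The sum over 15 platelet markers was 3789 to 4497 CPM in untreated, 3526 to 6370 in platelet, 3903 to 4717 in LPS and 3736 to 4010 in platelet plus LPS libraries, with Gp5 at 0 in all but 1 group. Pf4 and Ppbp, high in all 4 groups, made up most of that sum. Ppbp was lower with platelets, at 238 to 245 CPM untreated and 155 to 191 with platelets. With LPS it was at 242 to 276 CPM, and with platelets plus LPS at 133 to 152. Pf4 and Itgb3 overlapped between groups with and without platelets. Some other markers of the list were higher with platelets, and 5 of them, chosen after their values were seen, are given here. Gng11 was at 1.65 to 2.07 CPM untreated and 73.6 to 148 with platelets, and at 1.52 to 2.42 with LPS and 58.1 to 71.6 with platelets plus LPS. Ctla2a was at 1.23 to 2.17, 114 to 239, 1.75 to 2.35 and 74.1 to 95.6 CPM in the same order. Gp9, Clec1b and Nrgn were at 0 to 0.136 CPM untreated and 8.25 to 27.05 with platelets, and at 0 to 0.762 with LPS and 3.45 to 14.3 with platelets plus LPS. The 6 erythroid markers summed to 1.12 to 1.61 CPM in untreated and 11.9 to 24.5 CPM in platelet libraries, and to 0.0362 to 0.650 CPM with LPS and 7.08 to 9.35 CPM with platelets plus LPS. Plasma cells carry much ER chaperone RNA. Of their 7 markers, Mzb1 was at 0 in all 12 libraries. Sdc1, Ighm and Prdm1 were higher in every library with LPS alone than in any untreated one. The 7 plasma cell markers summed to 61.9 to 66.4, 44.6 to 59.8, 149 to 158 and 128 to 137 CPM in the same order of groups, with most of the sum from Sdc1, Ighm and Prdm1 and with Tnfrsf17 at 0 in 3 of the 4 groups. In that order, 8 basophil and mast cell markers summed to 1.44 to 2.59, 7.91 to 9.79, 104 to 107 and 82.7 to 93.9 CPM, with most of the sum from Hdc in the LPS-treated groups. The 10 neutrophil markers summed to 379 to 407, 216 to 253, 282 to 351 and 214 to 248 CPM, with most of the sum from Mmp8 and with Ly6g at 0 in the untreated and the platelet plus LPS groups. The 6 plasmacytoid dendritic cell markers summed to 139 to 153, 189.5 to 263, 371 to 434 and 508 to 568 CPM, with most of the sum from Bst2 and Tcf4 and with Klk1 at 0 in all groups but the platelet one. The 6 stromal and endothelial markers summed to 1.96 to 2.82, 2.75 to 3.41, 4.02 to 6.43 and 9.63 to 10.95 CPM, and the 5 B cell and the 7 T and NK cell markers to at most 4.75 and 1.02 CPM in any library. The part of other cells and of platelet RNA in the results below was not tested.

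Most of the ATF4 arm rose with LPS, and 6 of its members were lower when platelets came before LPS than with LPS alone. Of 18 tested members, 11 rose and 4 fell in LPS against untreated cells, where 27.7% of all 13151 genes rose and 23.0% fell. The median log2 fold change of the 18 was 0.55, beside 0.01 over all genes tested. Library by library, the median log2 ratio of the 18 to the untreated mean was 0.54 to 0.58 with LPS, 0.10 to 0.31 with platelets plus LPS and 0.075 to 0.14 with platelets. In cells incubated with platelets before LPS, 6 members were lower than with LPS alone and 0 were higher, against 2.87% lower and 4.41% higher of all genes, with a median of −0.30 beside 0.01. The count was 7 lower without platelet replicate 1 and 3 without LPS replicate 1 or 2 or platelet plus LPS replicate 2. At an unadjusted p under 0.05, edgeR passed 10 lower and 0 higher members, and both DESeq2 and limma-voom called 0 higher. In bulk RNA, fewer cells of a type and less RNA per cell cannot be told apart. All calls are from edgeR's quasi-likelihood test with Benjamini-Hochberg adjustment over all genes tested, at an adjusted p under 0.05. Percentages of all genes are given for the main fit only, and the calls over all genes also changed under the alternatives. These percentages are of adjusted calls. The share of all genes at an unadjusted p under 0.05 was not counted. Unadjusted counts, here and below, therefore cannot be read against these percentages.

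In platelet against untreated cells 3 members of this arm rose and 0 fell, against 3.63% and 2.86% of all genes, with a median of 0.10 beside 0. At an unadjusted p under 0.05, edgeR passed 4 higher and 0 lower, and DESeq2 and limma-voom called 0 lower. Leaving out platelet replicate 1 left 2 higher, leaving out untreated replicate 1 or 2 left 1, and a fit of only these 2 groups called 0 higher. LPS was also compared within platelet-incubated cells: 7 members rose and 5 fell in platelet plus LPS against platelet cells, where 27.6% and 21.8% of all genes did. These comparisons share libraries with the others, so they do not count as separate evidence.

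The split of LPS calls depended on scaling. Upper-quartile factors and library size alone moved the median of all genes to −0.19 and −0.37 in LPS against untreated and to −0.22 and −0.34 in platelet plus LPS against platelet, while in the other comparisons it stayed between −0.03 and 0.03. In this arm LPS against untreated then gave 10 higher and 7 lower members with upper-quartile factors and 9 and 7 with library size alone. Platelet plus LPS against platelet gave 4 higher and 7 lower with either.

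**Figure D1:**
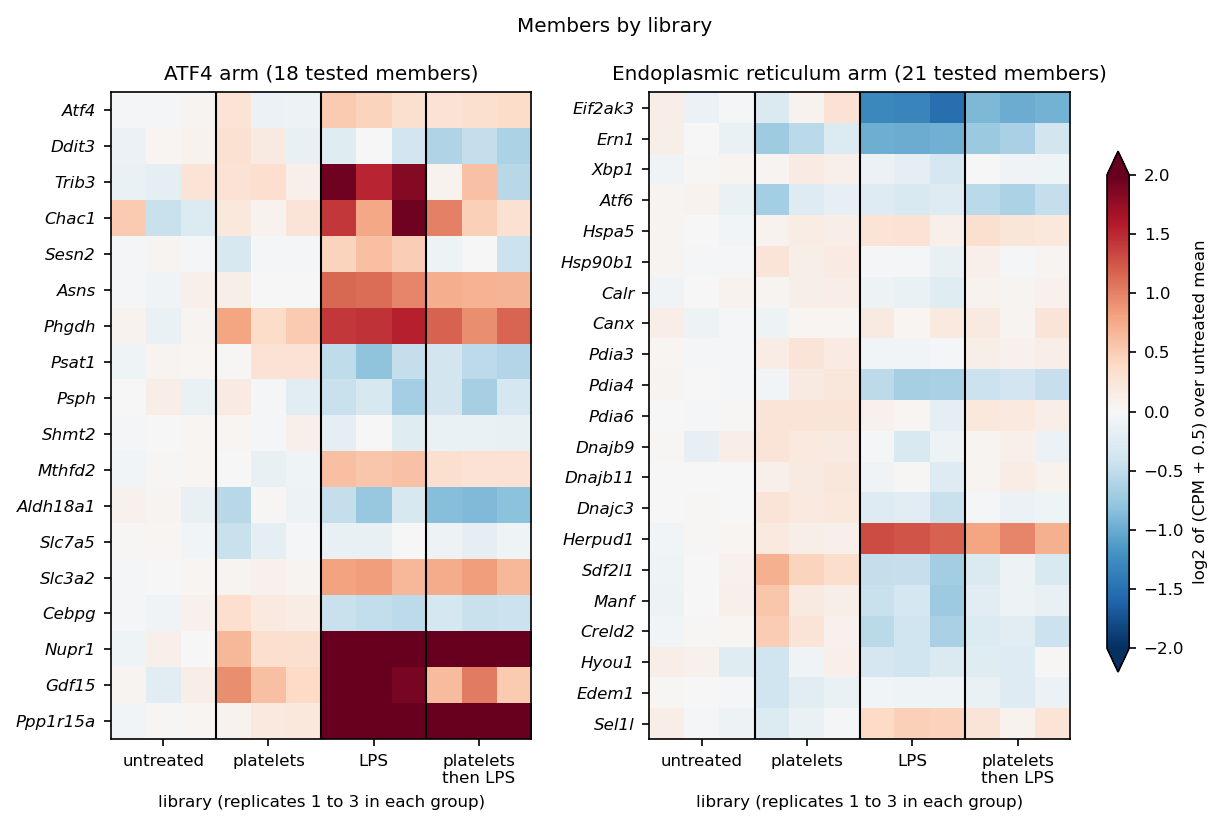
Level of each of the 39 tested members in each of the 12 libraries, as log2 of CPM plus 0.5 over the mean of the untreated libraries, with colours limited to −2 to 2 (stronger differences share the end colours), with the ATF4 arm on the left and the ER arm on the right. Ppp1r15a, Nupr1, Gdf15 and Trib3 are dark red with LPS, and Gdf15 and Trib3 are paler with platelets plus LPS.

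Because ATF4 binds DNA with C/EBP partners at a composite element, the promoters were searched for its core. RefSeq promoter windows of 300 bases (assembly GRCm38.p6) were matched by symbol for 36 of the 40 genes. The core searched was TGATGNAA, on both strands, and it was found in 5 of 21 windows of the ATF4 arm (23.8%), in 1 of 18 windows of the ER arm (5.56%) and in 3.97% of all 32851 windows. The holders in the ATF4 arm are Trib3, Chac1, Asns, Nupr1 and Vldlr, and the holder in the ER arm is Herpud1. The stretches around the match are printed for those holders that were tested, since they include members with large differences between groups. They run 5′ to 3′ on the gene's strand, with the core in capitals (its reverse complement where the match is on the other strand). Their positions are chr2:152344029-152344056 (minus strand) for Trib3, just after the start site, chr2:119351012-119351091 (plus) for Chac1, chr6:7693210-7693289 (minus) for Asns, chr7:126625471-126625620 (minus) for Nupr1 and chr8:94386279-94386428 (plus) for Herpud1.
Trib3: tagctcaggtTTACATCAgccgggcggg
Chac1: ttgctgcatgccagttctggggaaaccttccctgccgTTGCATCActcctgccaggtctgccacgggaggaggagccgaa
Asns: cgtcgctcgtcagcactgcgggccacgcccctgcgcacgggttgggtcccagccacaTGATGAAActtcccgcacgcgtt
Nupr1: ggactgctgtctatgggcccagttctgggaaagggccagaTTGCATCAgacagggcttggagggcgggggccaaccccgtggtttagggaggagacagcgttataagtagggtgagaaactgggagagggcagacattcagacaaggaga
Herpud1: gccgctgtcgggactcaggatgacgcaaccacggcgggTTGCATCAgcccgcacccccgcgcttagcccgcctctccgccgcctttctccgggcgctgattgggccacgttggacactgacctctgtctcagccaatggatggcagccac
Of the 4 tested ATF4-arm genes with the core, 4 rose with LPS, with log2 fold changes of 1.10 to 2.73, and of the 13 whose windows do not hold these letters 7 rose and 4 fell, with −0.59 to 4.15. Of all genes, 27.7% rose and 23.0% fell with LPS. With platelets before LPS, 2 of the 4 and 4 of the 13 were lower than with LPS alone, where 2.87% of all genes were lower. Holders and other members were not compared by a test. Gdf15, Sesn2 and Ddit3 have no match in their windows. A match is a description of the letters and not a bound site.

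The regulators of the arm are taken first. Atf4 messenger RNA stood at 167, 166 and 177 CPM in the untreated, 205, 157 and 157 in the platelet, 244, 231 and 212 in the LPS and 208, 212 and 220.2 in the platelet plus LPS libraries, each listed in the order of replicates 1 to 3. Every LPS library was above every untreated one, and the platelet plus LPS libraries overlapped the LPS ones. Atf4 was 1.35-fold higher with LPS (log2 0.43, SE 0.10, adjusted p = 0.00225), and this call was lost with upper-quartile factors or library size alone. Platelets before LPS gave a log2 difference of −0.098 against LPS alone (adjusted p = 0.672).

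Trib3 encodes a pseudokinase that binds ATF4 and restrains it. It was at 1.68, 1.61 and 2.38 CPM in untreated and 2.43, 2.53 and 2.08 CPM in platelet libraries. With LPS it was at 8.68, 6.37 and 8.06 CPM, and with platelets plus LPS at 2.0, 3.08 and 1.13 CPM. All 3 LPS libraries lay above the other 9, and the platelet plus LPS libraries overlapped those without LPS. Trib3 rose 4.06-fold with LPS (log2 2.02, SE 0.29, adjusted p = 2.74e-05). It was 3.73-fold lower with platelets plus LPS than with LPS alone (log2 −1.90, SE 0.29, adjusted p = 8.37e-04). In platelet-incubated cells the log2 difference with LPS was −0.18 (adjusted p = 0.648).

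Gdf15, a secreted stress cytokine of the TGF-beta family, was also highest with LPS alone. It was at 12.5, 10.2 and 13.2 CPM in untreated, 23.1, 18.4 and 15.9 CPM in platelet, 54.3, 60.9 and 45.8 CPM in LPS and 18.8, 25.04 and 17.5 CPM in platelet plus LPS libraries. The LPS libraries were above all others, and the platelet and platelet plus LPS libraries overlapped. Gdf15 rose 4.49-fold with LPS (log2 2.17, SE 0.17, adjusted p = 2.27e-08) and was 2.63-fold lower with platelets plus LPS than with LPS alone (log2 −1.39, SE 0.17, adjusted p = 6.75e-05). In the absence of LPS the direction differed: Gdf15 was 1.599-fold higher with platelets than untreated (log2 0.68, adjusted p = 0.0255). That call was lost without platelet replicate 1, the highest platelet library (log2 0.54, adjusted p = 0.0528), and without each of 3 other libraries (untreated replicate 1 or 2, or platelet replicate 2).

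Sesn2 encodes a sestrin that restrains the growth kinase complex mTORC1. It was at 48.3, 51.1 and 47.95 CPM in untreated, 39.4, 48.3 and 47.9 CPM in platelet, 66.8, 74.6 and 69.2 CPM in LPS and 45.5, 49.7 and 36.5 CPM in platelet plus LPS libraries. Again the LPS libraries were above the other 9. Sesn2 rose 1.43-fold with LPS (log2 0.52, SE 0.11, adjusted p = 0.00132), a call lost with library size alone. With platelets before LPS it was 1.600-fold lower than with LPS alone (log2 −0.68, SE 0.11, adjusted p = 0.00157). Trib3, Gdf15 and Sesn2 kept this lower call under all 21 alternatives run.

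Ppp1r15a encodes GADD34, the stress-induced subunit that directs a phosphatase to eIF2 and restores translation. Its levels were 10.3, 10.9 and 11.01 CPM untreated, 11.3, 12.3 and 12.5 CPM with platelets, 192, 210.2 and 169 CPM with LPS and 156, 155 and 145 CPM with platelets plus LPS. The libraries with and without LPS were widely separated. Ppp1r15a rose 17.7-fold with LPS (log2 4.15, SE 0.10, adjusted p = 1.79e-14) and 12.6-fold in platelet-incubated cells (log2 3.65, adjusted p = 6.44e-14). It was 1.26-fold lower with platelets plus LPS than with LPS alone (log2 −0.33, adjusted p = 0.0368), a call kept in 11 of 21 alternatives, with adjusted p up to 0.175. It was lost when any untreated library, LPS replicate 1 or 2, or any platelet plus LPS library was left out.

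Nupr1, a small nuclear stress protein, rose with LPS whether or not platelets came first. It was at 12.7, 14.5 and 13.4 CPM untreated, 21.8, 17.2 and 17.1 CPM with platelets, 89.4, 91.4 and 89.5 CPM with LPS and 86.6, 94.00 and 82.9 CPM with platelets plus LPS. The last 2 groups overlapped, and all 3 platelet libraries were above the untreated ones. The rise with LPS was 6.65-fold (log2 2.73, SE 0.11, adjusted p = 4.33e-12), and platelets plus LPS differed from LPS alone by log2 −0.037 (adjusted p = 0.888). With platelets alone Nupr1 was 1.38-fold higher than untreated (log2 0.46, SE 0.11, adjusted p = 0.0159), and 0.36 on the log2 scale without platelet replicate 1 (adjusted p = 0.0225). The platelet call was lost without untreated replicate 1 or 3.

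Ddit3 encodes CHOP, the ATF4 partner tied to cell death. It was at 16.9, 18.7 and 19.2 CPM untreated, 22.7, 20.7 and 16.4 CPM with platelets, 15.3, 18.4 and 13.9 CPM with LPS and 11.9, 12.97 and 11.7 CPM with platelets plus LPS. The platelet plus LPS libraries were below those of every other group, and the LPS libraries overlapped the untreated ones. Ddit3 fell 1.64-fold with LPS in platelet-incubated cells (log2 −0.71, SE 0.14, adjusted p = 4.80e-04). Its log2 difference was −0.20 with LPS alone (adjusted p = 0.242) and −0.38 between platelets plus LPS and LPS (adjusted p = 0.130).

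Cebpg encodes a C/EBP protein that pairs with ATF4. It was at 48.5, 47.3 and 52.8 CPM untreated and 62.8, 56.7 and 54.8 CPM with platelets, and at 36.3, 34.96 and 34.3 CPM with LPS and 38.7, 36.3 and 36.6 CPM with platelets plus LPS. All 6 LPS-treated libraries were below the other 6. Cebpg fell 1.41-fold with LPS (log2 −0.49, SE 0.087, adjusted p = 1.85e-04) and 1.56-fold in platelet-incubated cells (adjusted p = 1.27e-05). Chac1, which breaks down glutathione, was near the floor at 0.946, 0.245 and 0.3399 CPM untreated and at 2.21, 1.22 and 3.38 CPM with LPS. Its log2 rise with LPS was 2.13 (SE 0.51, adjusted p = 0.00240), and platelets plus LPS differed from LPS by −1.08 (adjusted p = 0.227).

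**Figure D2:**
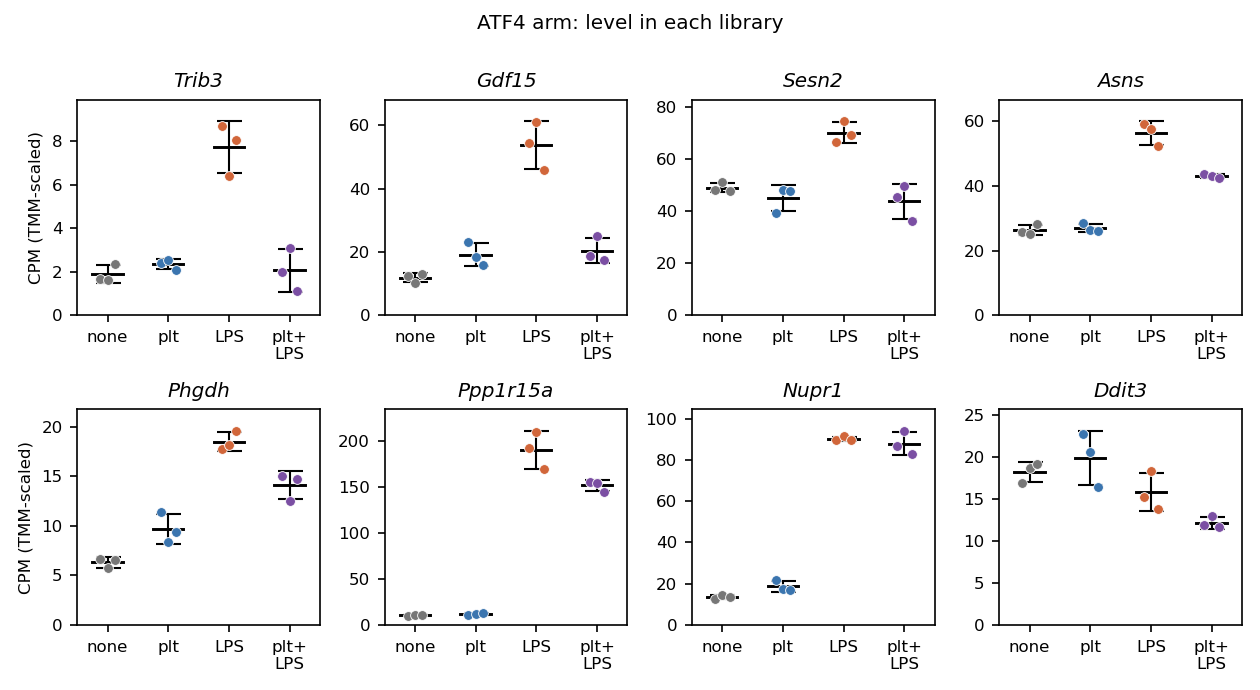
CPM of 8 ATF4-arm genes in each library (points), with the group mean (line) and SD (bars), for untreated (none), platelet (plt), LPS and platelet plus LPS (plt+LPS) groups, each with an axis from 0. The LPS libraries of Trib3, Gdf15 and Sesn2 lie above the other 9, while Nupr1 is at 82.9 CPM or more in both LPS-treated groups.

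Of 4 genes of amino acid synthesis and transport, 2 rose and 1 fell with LPS, where 27.7% of all genes rose and 23.0% fell. Asns, which makes asparagine, was at 25.8, 25.02 and 28.1 CPM untreated, 28.5, 26.3 and 26.2 CPM with platelets, 59.2, 57.6 and 52.2 CPM with LPS and 43.7, 42.98 and 42.6 CPM with platelets plus LPS. The platelet plus LPS libraries lay between the LPS libraries and those without LPS, with no overlap. Asns rose 2.14-fold with LPS (log2 1.10, SE 0.089, adjusted p = 3.44e-08) and 1.597-fold in platelet-incubated cells (adjusted p = 9.73e-06). It was 1.31-fold lower with platelets plus LPS than with LPS alone (log2 −0.39, SE 0.088, adjusted p = 0.0127), a call lost without LPS replicate 1 or 2 or platelet plus LPS replicate 2.

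Slc3a2 encodes the heavy chain shared by amino acid exchangers. It was at 649, 651 and 675 CPM untreated, 685, 695 and 687 CPM with platelets, 1149.6, 1178 and 1043 CPM with LPS and 1103, 1181 and 1043 CPM with platelets plus LPS. The LPS-treated groups overlapped and lay above the others. The rise with LPS was 1.71-fold (log2 0.77, SE 0.072, adjusted p = 1.97e-07). Its light-chain partner Slc7a5 did not pass the test in any comparison, with log2 values from −0.22 to 0.20. Aldh18a1, an enzyme of proline synthesis, fell with LPS (log2 −0.52, adjusted p = 0.00770) and with LPS in platelet-incubated cells (log2 −0.67, adjusted p = 0.00135).

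The serine and one-carbon genes did not move together with LPS. Phgdh, the first enzyme of serine synthesis, rose, while Psat1 and Psph, the next enzymes of that path, fell. Phgdh was at 6.69, 5.71 and 6.59 CPM untreated, 11.4, 8.34 and 9.33 CPM with platelets, 17.7, 18.1 and 19.6 CPM with LPS and 15.1, 12.5 and 14.7 CPM with platelets plus LPS. No group overlapped another. Phgdh rose 2.91-fold with LPS (log2 1.54, SE 0.14, adjusted p = 1.47e-07) and was 1.53-fold higher with platelets than untreated (log2 0.61, SE 0.14, adjusted p = 0.0168). Without platelet replicate 1 the platelet value was 0.50 on the log2 scale (adjusted p = 0.0407), and the call was lost without untreated replicate 2. The difference between platelets plus LPS and LPS was −0.39 (adjusted p = 0.110).

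Psat1 was at 63.2 ± 3.34 CPM (SD, n = 3) untreated and 41.98 ± 5.12 CPM with LPS (log2 −0.59, adjusted p = 2.78e-04), and Psph at 11.1 ± 1.08 and 7.796 ± 1.03 CPM (log2 −0.50, adjusted p = 0.0155). The Psph call was lost without untreated replicate 2 or LPS replicate 3. Mthfd2, a mitochondrial folate enzyme, was at 82.9, 87.6 and 88.5 CPM untreated, 86.7, 78.1 and 81.5 CPM with platelets, 131, 127 and 129.7 CPM with LPS and 108, 106 and 106 CPM with platelets plus LPS. The LPS libraries were highest and the platelet plus LPS libraries next. Mthfd2 rose 1.496-fold with LPS (log2 0.58, SE 0.075, adjusted p = 8.16e-06). Platelets before LPS gave a 1.22-fold lower level than LPS alone (log2 −0.28, adjusted p = 0.0332), kept in 11 of 21 alternatives, with adjusted p up to 0.231. Leaving out untreated replicate 2 or 3 or any one of the 6 libraries compared ended that call. Shmt2, the mitochondrial serine enzyme that feeds Mthfd2, did not pass with LPS (log2 −0.15, adjusted p = 0.160).

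Whether the platelet effect itself differed between cells with and without LPS was tested as an interaction. In this arm 3 members passed on the lower side and 0 on the higher side, against 0.722% and 0.859% of all genes, with a median of −0.32 beside 0.01. At an unadjusted p under 0.05, edgeR passed 8 lower and 0 higher, and DESeq2 and limma-voom called 7 and 3 lower and 0 higher. The 3 were Trib3 (log2 −2.21, SE 0.42, adjusted p = 0.0141), Gdf15 (−2.07, SE 0.24, adjusted p = 2.09e-04) and Phgdh (−0.99, SE 0.20, adjusted p = 0.0177). The log2 difference with platelets was 0.31, 0.68 and 0.61 for these genes without LPS and −1.90, −1.39 and −0.39 with it. Gdf15 passed under all 20 alternatives and Trib3 and Phgdh under 18, the exceptions being untreated replicate 2 or LPS replicate 1 left out for Trib3 and untreated replicate 2 or platelet plus LPS replicate 2 left out for Phgdh. Without platelet replicate 1, 5 members passed on the lower side, the added ones being Sesn2 (−0.69, adjusted p = 0.0135) and Ppp1r15a (−0.58, adjusted p = 0.0163).

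**Figure D3:**
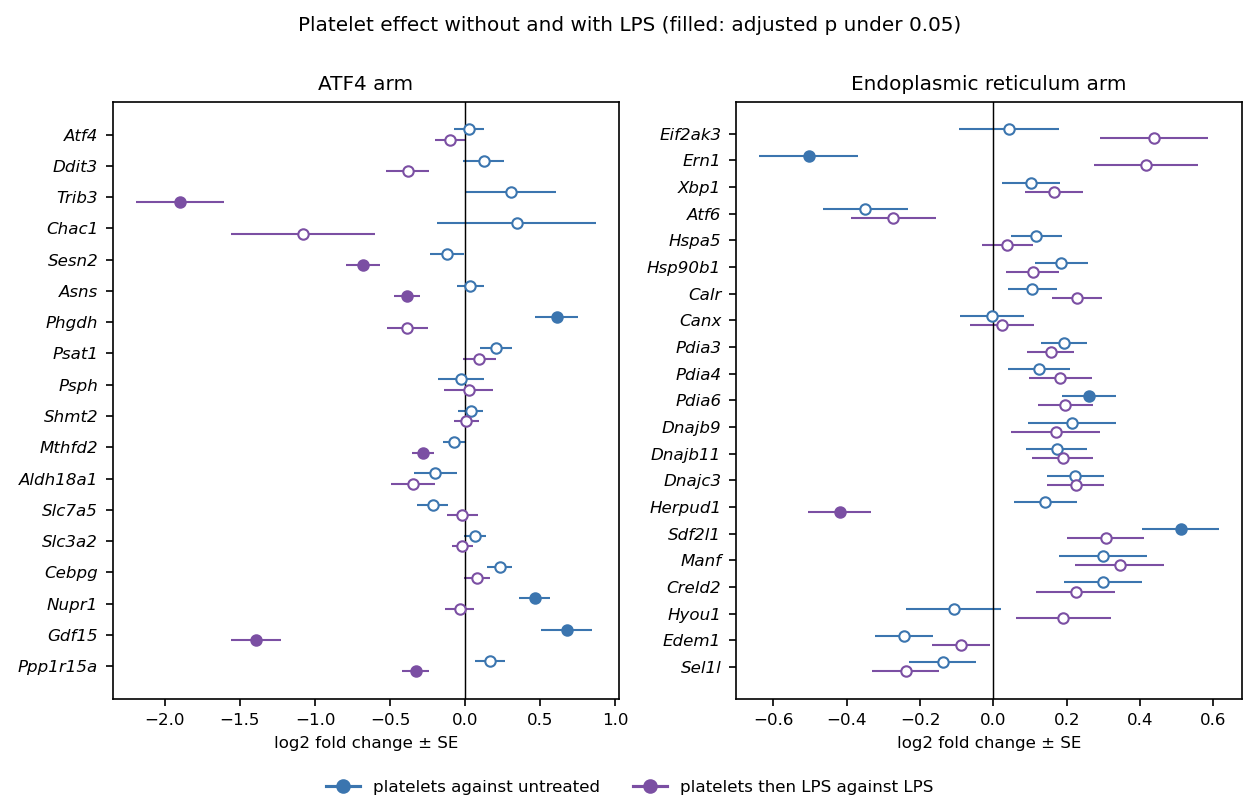
Log2 fold change (horizontal axis, bars are SE) of each tested member for platelets against untreated (blue) and platelets plus LPS against LPS (purple), filled where the adjusted p is under 0.05. The purple points of Trib3, Gdf15 and Sesn2 lie at −1.90, −1.39 and −0.68, and their blue points at 0.31, 0.68 and −0.12.

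More members of the ER arm fell than rose with LPS. Of 21 tested members, 3 rose and 9 fell in LPS against untreated cells, against 27.7% and 23.0% of all genes, with a median of −0.15 beside 0.01. The median log2 ratio of the 21 to the untreated mean was −0.25 to −0.094 in the LPS, −0.082 to −0.005 in the platelet plus LPS and 0.07 to 0.14 in the platelet libraries. In platelet plus LPS against platelet cells 2 rose and 6 fell, against 27.6% and 21.8% of all genes, with a median of −0.09 beside 0.02. There were more falls under other scalings: upper-quartile factors gave 2 higher and 17 lower and library size alone 1 and 18 in the former comparison, and 1 and 15 and 1 and 18 in the latter. Without platelet replicate 1 the latter comparison gave 10 lower. The differences between the 2 arms were not tested.

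Fewer ER members passed the test with platelets than with LPS, as was so for all genes. In platelet against untreated cells 2 rose and 1 fell, against 3.63% and 2.86% of all genes, with a median of 0.12 beside 0. The count was 4 higher and 0 lower without platelet replicate 1, 3 lower without platelet replicate 3, 6 higher and 1 lower with DESeq2, 2 and 0 with DESeq2 size factors in edgeR, and 1 and 1 with library size alone. Without adjustment, edgeR passed 7 higher and 3 lower in this comparison at p under 0.05. In platelet plus LPS against LPS cells 1 fell and 0 rose, against 2.87% and 4.41% of all genes, with a median of 0.18 beside 0.01. At an unadjusted p under 0.05, edgeR passed 9 higher and 3 lower, DESeq2 called 3 higher and 1 lower, and limma-voom 1 and 1, as did upper-quartile factors. Without platelet replicate 1, which is in neither group but shares the estimate of spread, 5 were higher (Eif2ak3, Calr, Dnajc3, Sdf2l1 and Manf) and 3 lower (Atf6, Sel1l and Herpud1), the former with log2 values from 0.21 to 0.42. The shares of all genes above are those of the main fit. Calls over all genes also varied with the library left out, so these counts cannot be read against those shares.

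XBP1 and ATF6 act at the ER stress response element, CCAAT and CCACG set apart by 9 bases. This spacing was searched on both strands in the same windows, and it was found in 7 of 18 ER-arm windows (38.9%), in 0 of 21 ATF4-arm windows and in 0.119% of all 32851 windows. Its end CCACG alone, which lies inside the full element, was in 83.3% of ER-arm, 61.9% of ATF4-arm and 32.8% of all windows, and the related element TGACGTGG was in none of either arm and in 0.676% of all. The 7 genes include Hspa5, the classic reporter of the response, and their stretches are printed to show how the element recurs, with the full element in capitals, again as its reverse complement where the match is on the other strand. They lie at chr2:34771940-34772089 (plus strand) for Hspa5, chr10:86705505-86705684 (minus) for Hsp90b1, chr8:84847045-84847124 (minus) for Calr, chr11:50325770-50325849 (minus) for Canx, chr12:17266460-17266539 (plus) for Pdia6, chr14:118937796-118937875 (plus) for Dnajc3 and chr15:88819489-88819568 (plus) for Creld2, from RefSeq, GRCm38.p6.
Hspa5: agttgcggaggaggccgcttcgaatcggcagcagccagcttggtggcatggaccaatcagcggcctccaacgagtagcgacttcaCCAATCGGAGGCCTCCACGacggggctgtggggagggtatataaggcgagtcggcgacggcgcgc
Hsp90b1: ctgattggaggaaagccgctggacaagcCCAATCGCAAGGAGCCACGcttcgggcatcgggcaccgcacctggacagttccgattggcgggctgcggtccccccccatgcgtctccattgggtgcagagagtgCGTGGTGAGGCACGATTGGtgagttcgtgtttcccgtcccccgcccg
Calr: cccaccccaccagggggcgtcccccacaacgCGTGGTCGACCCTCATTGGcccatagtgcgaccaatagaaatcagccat
Canx: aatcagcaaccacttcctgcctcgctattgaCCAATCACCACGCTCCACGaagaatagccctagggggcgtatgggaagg
Pdia6: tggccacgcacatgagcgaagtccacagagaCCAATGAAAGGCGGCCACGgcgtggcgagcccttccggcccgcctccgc
Dnajc3: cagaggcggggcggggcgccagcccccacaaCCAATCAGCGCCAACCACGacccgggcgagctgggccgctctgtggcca
Creld2: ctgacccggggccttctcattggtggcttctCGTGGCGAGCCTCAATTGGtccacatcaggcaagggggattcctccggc
Among these 7 genes, 1 rose and 2 fell with LPS, with log2 values of −0.53 to 0.22, and among the 11 ER-arm genes whose windows do not hold the element 2 rose and 5 fell, with −1.41 to 1.25. Of all genes, 27.7% rose and 23.0% fell. Other spacings of CCAAT and CCACG were not searched. Holders and other members were not compared by a test.

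Of 4 sensors and their transcription factors, 3 fell with LPS, against 23.0% of all genes. Eif2ak3, which encodes PERK, was at 26.8, 22.3 and 23.7 CPM untreated, 19.7, 25.4 and 29.7 CPM with platelets, 9.66, 9.46 and 8.17 CPM with LPS and 12.7, 11.99 and 12.4 CPM with platelets plus LPS. All 6 LPS-treated libraries were below the other 6, those with LPS alone lowest. Eif2ak3 fell 2.66-fold with LPS (log2 −1.41, SE 0.15, adjusted p = 5.82e-07) and 2.02-fold in platelet-incubated cells (adjusted p = 1.81e-05). Between platelets plus LPS and LPS the log2 difference was 0.44 (adjusted p = 0.0929).

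Ern1, which encodes IRE1 alpha, was at 24.9, 22.9 and 20.8 CPM untreated, 13.8, 15.6 and 18.8 CPM with platelets, 11.3, 11.2 and 11.5 CPM with LPS and 13.4, 14.4 and 17.7 CPM with platelets plus LPS. The untreated libraries were the highest and the LPS libraries the lowest. Ern1 fell 2.01-fold with LPS (log2 −1.01, SE 0.14, adjusted p = 1.66e-05) and was 1.42-fold lower with platelets than untreated (log2 −0.50, SE 0.14, adjusted p = 0.0373). The platelet call was lost without platelet replicate 1 (log2 −0.39, adjusted p = 0.118) and in 9 other alternatives, 6 of which left out another library (untreated 1 or 2, platelet 2, LPS 1 or 2, or platelet plus LPS 2). The interaction was on the higher side (log2 0.92, SE 0.20, adjusted p = 0.0282) and passed in 11 of 20 alternatives, being lost without untreated 1 or 2, platelet 2, any LPS library or platelet plus LPS 2 or 3. Herpud1 was the ER member with an interaction on the lower side. Thus 1 of the 21 members passed in each direction, against 0.859% higher and 0.722% lower of all genes, with a median of 0.02 beside 0.01.

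Xbp1 and Atf6, the transcription factors of the IRE1 and ATF6 branches, had smaller log2 differences with LPS than Eif2ak3 and Ern1. Xbp1 was at 268, 287 and 293 CPM untreated, 293, 316 and 302 CPM with platelets, 259.7, 248 and 223 CPM with LPS and 282, 271 and 266 CPM with platelets plus LPS, and the LPS libraries were below all others. It fell 1.16-fold with LPS (log2 −0.22, SE 0.079, adjusted p = 0.0331), a call lost without untreated replicate 2 or 3 or LPS replicate 2 or 3. Atf6 was at 118, 119 and 103 CPM untreated, 70.2, 95.03 and 101 CPM with platelets, 94.8, 91.4 and 94.9 CPM with LPS and 78.1, 72.9 and 81.4 CPM with platelets plus LPS. Untreated libraries were highest, and Atf6 passed in no comparison, with log2 −0.27 for LPS (adjusted p = 0.0607) and −0.35 for platelets (adjusted p = 0.0919). In 9 of 21 alternatives Atf6 passed as lower with LPS. Among them were upper-quartile factors, library size alone, no filter, a stricter filter, DESeq2 and only the groups compared. The others left out untreated replicate 3, platelet replicate 3 or platelet replicate 1 (log2 −0.30, adjusted p = 0.00259 for the last).

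Among 11 chaperones and co-chaperones, 1 rose and 5 fell with LPS, against 27.7% and 23.0% of all genes. Hspa5, which encodes the main ER chaperone BiP, was the one that rose. It was at 1377, 1318 and 1283 CPM untreated, 1392, 1462 and 1462 CPM with platelets, 1601, 1621 and 1421 CPM with LPS and 1652, 1577 and 1538 CPM with platelets plus LPS. LPS libraries were above untreated ones and overlapped those with platelets plus LPS. The rise was 1.17-fold (log2 0.22, SE 0.07, adjusted p = 0.0146), and the sign turned with library size alone (log2 −0.16). The call was lost without untreated replicate 2 or 3 or LPS replicate 1 or 2.

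Sdf2l1, part of an ER chaperone complex, had the largest log2 difference of these 11 genes with platelets. It was at 244, 260.5 and 278 CPM untreated, 427, 354 and 333 CPM with platelets, 188, 188 and 161 CPM with LPS and 213, 243 and 210.0 CPM with platelets plus LPS. Platelet libraries were highest and LPS libraries lowest, and no group overlapped another. Sdf2l1 was 1.42-fold higher with platelets (log2 0.51, SE 0.10, adjusted p = 0.00749), a call kept under all 21 alternatives. Without platelet replicate 1, the highest library, the log2 value was 0.42 (adjusted p = 0.00393). Sdf2l1 fell 1.45-fold with LPS (log2 −0.54, SE 0.11, adjusted p = 4.47e-04), and platelets plus LPS differed from LPS by 0.31 (adjusted p = 0.0993).

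Creld2, an ER-stress-induced protein that can be secreted, was at 112, 119 and 119.9 CPM untreated, 167, 141 and 125 CPM with platelets, 80.2, 88.4 and 74.5 CPM with LPS and 96.7, 101 and 86.7 CPM with platelets plus LPS. Its 6 LPS-treated libraries were below the other 6. It fell 1.44-fold with LPS (log2 −0.53, SE 0.11, adjusted p = 6.55e-04). Manf, another secreted factor induced by ER stress, and Dnajc3, a co-chaperone of BiP, fell as well, with log2 values of −0.50 (adjusted p = 0.00273) and −0.31 (adjusted p = 0.00396). Hyou1, which recycles BiP, fell (log2 −0.34, adjusted p = 0.0396), a call lost when any of 7 libraries was left out: untreated 1 or 2, any LPS library, or platelet plus LPS 1 or 2. The lectin chaperones Calr and Canx, the HSP90 paralogue Hsp90b1 and the co-chaperones Dnajb9 and Dnajb11 did not pass with LPS, with log2 values from −0.15 to 0.14.

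**Figure D4:**
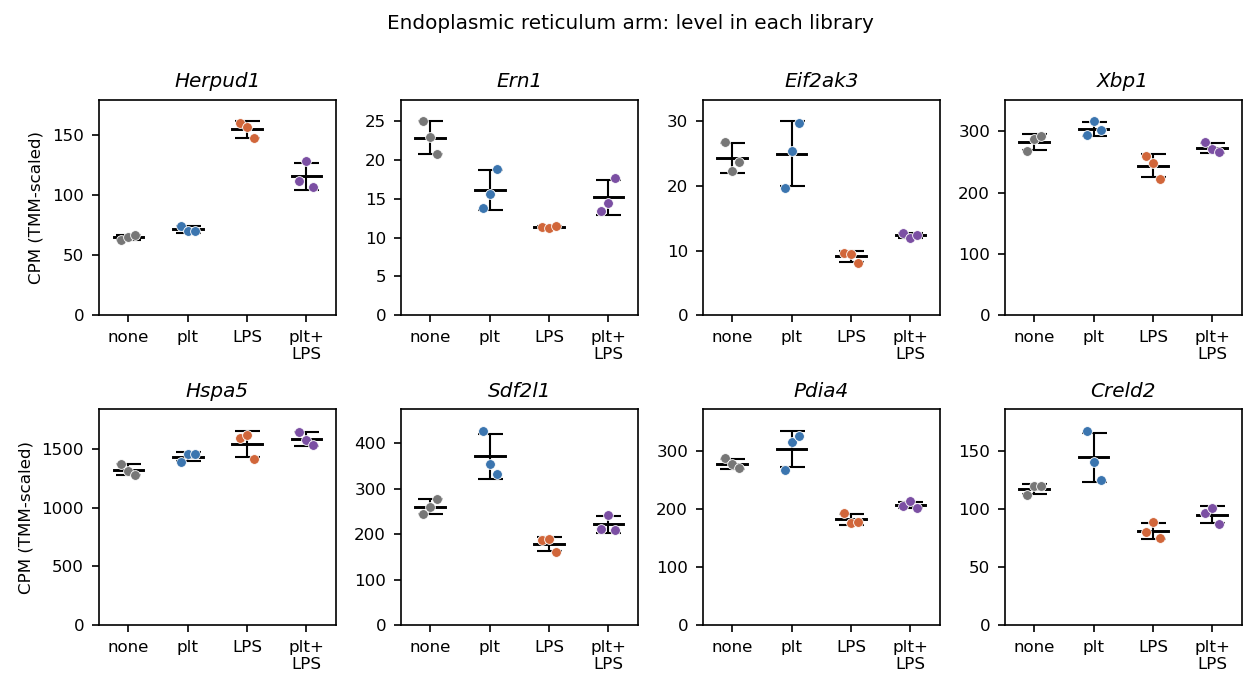
CPM of 8 ER-arm genes in each library (points), with the group mean (line) and SD (bars), for untreated (none), platelet (plt), LPS and platelet plus LPS (plt+LPS) groups, each with an axis from 0. Herpud1 is highest with LPS (147 CPM or more), while Eif2ak3, Pdia4 and Creld2 are lower in all LPS-treated libraries than in the others.

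Of the protein disulfide isomerases, which form and correct disulfide bonds, Pdia4 fell with LPS. It was at 288, 277 and 270.0 CPM untreated, 268, 315 and 327 CPM with platelets, 193, 176 and 178 CPM with LPS and 206, 213 and 202 CPM with platelets plus LPS. The LPS-treated libraries were below the rest. The fall was 1.53-fold (log2 −0.61, SE 0.086, adjusted p = 2.02e-05). Pdia6 was the isomerase that rose with platelets. It was at 675, 667 and 689.8 CPM untreated, 814, 811 and 809 CPM with platelets, 717, 694 and 601 CPM with LPS and 783, 778 and 745 CPM with platelets plus LPS. The platelet libraries were above all others. The rise was 1.198-fold (log2 0.26, SE 0.074, adjusted p = 0.0495) and was kept in 7 of 21 alternatives. It was kept without platelet replicate 1 (log2 0.28, adjusted p = 0.0145) and without LPS replicate 3, and was lost with any other single library left out. Pdia3 had log2 −0.045 with LPS and 0.19 with platelets (adjusted p = 0.596 and 0.0896).

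Of 3 degradation genes, 2 rose with LPS, as did 27.7% of all genes. Herpud1, a membrane scaffold of ER-associated degradation whose window holds the ATF4 core printed above, was at 62.3, 65.6 and 66.6 CPM untreated, 74.7, 70.2 and 69.8 CPM with platelets, 160.3, 156 and 147 CPM with LPS and 112, 128 and 107 CPM with platelets plus LPS. The LPS libraries were highest, then those with platelets plus LPS, with no overlap. Herpud1 rose 2.38-fold with LPS (log2 1.25, SE 0.087, adjusted p = 4.82e-09) and 1.62-fold in platelet-incubated cells (adjusted p = 5.49e-06). It was 1.34-fold lower with platelets plus LPS than with LPS (log2 −0.42, SE 0.086, adjusted p = 0.00639), kept under all 21 alternatives. Its interaction was −0.56 (SE 0.12, adjusted p = 0.0302), which passed in 11 of 20 alternatives and was lost without any untreated library, platelet 2, LPS 1 or 2, or platelet plus LPS 1 or 3. Sel1l, the partner of the ligase HRD1, also rose with LPS (log2 0.45, adjusted p = 7.11e-04), a call lost with library size alone. Edem1, which sorts misfolded glycoproteins, had log2 −0.078 (adjusted p = 0.447).

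**Figure D5:**
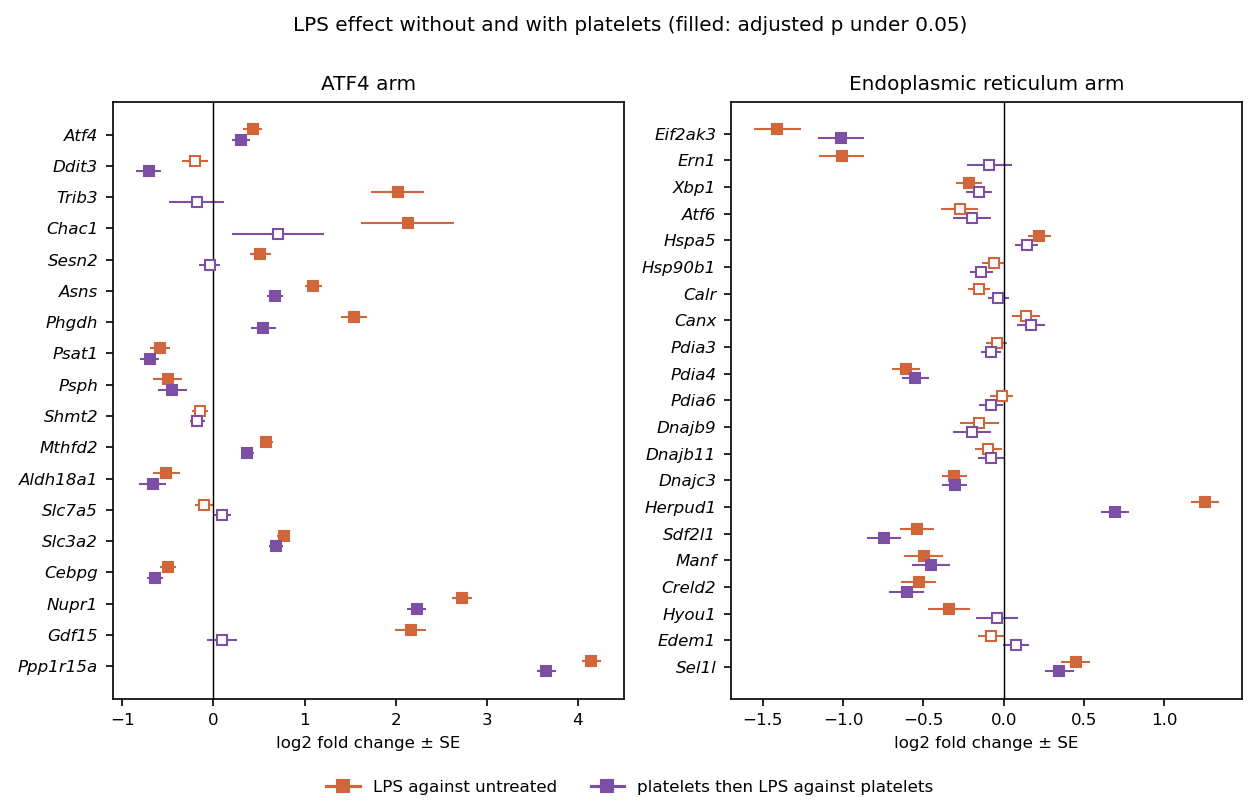
Log2 fold change (horizontal axis, bars are SE) of each tested member for LPS against untreated (orange) and platelets plus LPS against platelets (purple), filled where the adjusted p is under 0.05. Ppp1r15a is far right in both, at 4.15 and 3.65, while Trib3 and Gdf15 are at 2.02 and 2.17 without platelets and −0.18 and 0.095 with them.

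Other genes of these pathways, from 8 lists, were counted in the same fit. With LPS, 27.7% of all genes rose and 23.0% fell, and the counts of each list are to be read against those shares. Of 6 genes around eIF2 phosphorylation, 4 rose and 1 fell with LPS, or 2 higher and 1 lower with upper-quartile factors and 2 higher and 2 lower with library size alone. Eif2ak2, the kinase PKR that senses viral RNA, rose 7.46-fold (log2 2.90, SE 0.11, adjusted p = 2.55e-12). Ppp1r15b, the constitutive counterpart of GADD34, rose by log2 1.47 (adjusted p = 1.05e-07), and Eif2ak4, the amino acid sensor GCN2, fell (log2 −1.08, adjusted p = 5.59e-05). In 20 cytosolic aminoacyl-tRNA synthetases, the enzymes that load tRNAs, 7 rose and 2 fell with LPS, but the count was 1 higher and 4 lower with upper-quartile factors and 0 higher and 12 lower with library size alone, so that list's direction depends on scaling. The 7 that rose with TMM factors are a share close to that of all genes. Without LPS replicate 1 the list had 4 higher.

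Of 23 tested other amino acid stress genes, 8 rose and 5 fell with LPS, shares close to the 27.7% and 23.0% of all genes, or 7 higher and 9 lower with library size alone. The leading ones were Slc7a11, the cystine importer (log2 5.55, adjusted p = 1.48e-13), Sqstm1, the autophagy receptor p62 (log2 3.11, adjusted p = 1.96e-15), and Jdp2, a repressor of the AP-1 family (log2 2.82, adjusted p = 1.07e-12). In platelet plus LPS against LPS cells 6 of the 23 were lower and 1 was higher, against 2.87% and 4.41% of all genes. Ndrg1 (log2 −0.65, adjusted p = 0.0108) and Sqstm1 (log2 −0.33, adjusted p = 0.00165) fell, and the gene that rose was Vegfa, a growth factor for blood vessels (log2 1.45, adjusted p = 1.08e-06). The lower count was 2 or 3 when any one of the 6 libraries compared was left out. In platelet against untreated cells Vegfa and Jdp2 rose (log2 1.37 and 0.41) and Slc7a11 fell (log2 −0.69, adjusted p = 0.00950), with 1 higher when untreated replicate 1 or 2 was left out. In the interaction, Jdp2 (log2 −0.77, adjusted p = 0.00670) and Pck2, the mitochondrial PEP carboxykinase (log2 −0.68, adjusted p = 0.0487), were lower. The list thus had 2 of 23 lower and 0 higher, against 0.722% and 0.859% of all genes, with a median of −0.16 beside 0.01. The lower count was 3 without platelet replicate 1 and 1 without any other library. The shares of all genes are those of the main fit.

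In 18 tested other genes of ER-associated degradation, 12 rose and 0 fell with LPS, against 27.7% and 23.0% of all genes, with a median of 0.33 beside 0.01. At an unadjusted p under 0.05, edgeR passed 12 higher and 0 lower, DESeq2 called 1 lower and limma-voom 0. Nploc4 (log2 0.83, adjusted p = 2.88e-06) and Vcp (log2 0.57, adjusted p = 4.03e-06), which together extract proteins from the membrane, and Herpud2 (log2 0.84, adjusted p = 1.43e-05) led by smallest p. The count was 3 higher and 1 lower with upper-quartile factors and 3 higher and 4 lower with library size alone. Of 25 genes of ER translocation and glycosylation, 2 rose and 3 fell with LPS, against the same shares of all genes. The count was 2 higher and 7 lower with upper-quartile factors, 1 higher and 18 lower with library size alone and 4 higher and 5 lower without platelet replicate 1. The smallest p belonged to Srpr, a subunit of the signal recognition particle receptor (log2 0.80, adjusted p = 5.47e-07).

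Of 20 other ER folding factors, 7 rose and 4 fell with LPS, shares close to the 27.7% and 23.0% of all genes, or 3 higher and 6 lower with upper-quartile factors and 3 higher and 10 lower with library size alone, and the lower count was 2 without untreated replicate 1. Ero1a, the oxidase that recharges the isomerases, led them (log2 1.09, SE 0.11, adjusted p = 5.91e-07). With platelets, P4hb, the founding protein disulfide isomerase, was higher both without LPS (log2 0.37, SE 0.073, adjusted p = 0.00523) and with it (log2 0.34, SE 0.073, adjusted p = 0.00822). Pdia5 was higher without LPS (log2 0.56, adjusted p = 0.0261), and 1 folding factor in place of 2 was higher without any one untreated library or platelet replicate 2. Of 10 tested other regulators of the unfolded protein response, 3 rose and 2 fell with LPS, again close to the shares of all genes, among them Tmbim6, an ER membrane protein that restrains cell death (log2 0.69, adjusted p = 1.06e-05), and without untreated or LPS replicate 1 the lower count was 1. With library size alone it was 1 higher and 5 lower.

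The cytosolic heat shock genes, which answer misfolding outside the ER, gave 7 higher and 4 lower of 16 with LPS, beside 27.7% and 23.0% of all genes, 5 higher and 5 lower with upper-quartile factors and 4 higher and 8 lower with library size alone. The lower count was 2 without LPS replicate 3. The stress-induced HSP70 genes Hspa1b and Hspa1a rose by log2 4.84 (adjusted p = 3.08e-12) and 4.36 (adjusted p = 1.43e-10). These are near-identical copies, so reads may be split between them in ways the counts do not show. In platelet against untreated cells 0 of the 16 passed in either direction with edgeR, 4 had an unadjusted p under 0.05, DESeq2 called 1 higher and 1 lower, and limma-voom 0 higher and 0 lower.

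In platelet against untreated cells each of the 8 lists had 0 to 2 genes higher and 0 or 1 lower, where 3.63% of all genes rose and 2.86% fell. Leaving out platelet replicate 1 took the higher count from 2 to 4 in ER translocation and glycosylation, from 2 to 3 in the folding factors and from 0 to 1 in the heat shock genes. Between platelet plus LPS and LPS cells, where 4.41% of all genes were higher and 2.87% lower, each list apart from the amino acid stress genes above had 0 or 1 in either direction. Of the 25 translocation and glycosylation genes 0 passed there with edgeR, 6 had an unadjusted p under 0.05, all higher, DESeq2 called 1 higher and limma-voom 0. Their log2 differences were above 0 in 25 of 25 with TMM factors, from 0.0030 to 0.32, with a median of 0.14 beside 0.01. A fit of only those 2 groups called 4 of them higher, and leaving out platelet replicate 1, a library outside that comparison that enters its estimate of spread, gave 5. In the latter fit the folding factors had 3 higher in place of 1, the eIF2 genes 1 higher in place of 0, the tRNA synthetases 3 lower in place of 1 and the heat shock genes 1 higher and 2 lower in place of 0. The shares of all genes given here are again those of the main fit. The tRNA synthetase Eprs fell with platelets (log2 −0.38, adjusted p = 0.0194), a call lost without any one untreated library or platelet replicate 2. Edem2, a relative of Edem1, rose (log2 0.30, adjusted p = 0.0362), a call lost without any untreated library, platelet replicate 2, LPS replicate 2 or platelet plus LPS replicate 1 or 2. Ddost, of the oligosaccharyltransferase (log2 0.25, adjusted p = 0.0417), and Spcs2, of the signal peptidase (log2 0.35, adjusted p = 0.0497), rose too, and both calls were lost when any library other than platelet replicate 1 or 3 or LPS replicate 3 was left out. In platelet plus LPS against LPS cells Yars, another tRNA synthetase, was lower (log2 −0.32, adjusted p = 0.0282) and Creb3l2, an ER-bound transcription factor, was higher (log2 0.60, adjusted p = 0.0218). Yars was lost without any one of the 6 libraries compared, and Creb3l2 without any of them but platelet plus LPS replicate 2.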

How the data were processed

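The deposited files hold raw read counts per gene, 1 file per library, made by the authors. Per the submitters' processing notes the tools include Salmon 1.5.2, STAR 2.7.9a, featureCounts, Subread 2.0.1 and fastp 0.23.1, with no role given. Genome build, annotation and strandedness were not given in the sources used here. Hence reads of a gene and an antisense or overlapping partner cannot be told apart. Per the labels' protocols, RNA came from a micro-scale column kit, cDNA from a low-input full-length template-switching kit and libraries from transposase tagging. The labels mention no molecular identifiers, so floors of 3 counts cover counting error only.

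Here, R 4.3.3 with edgeR 4.0.16 fitted the counts of all 12 libraries (TMM factors, filterByExpr, 4 group means, 8 residual degrees of freedom), and quasi-likelihood tests were adjusted by Benjamini-Hochberg over 13151 genes. Replicate numbers were not used as a block. On data simulated for platelets against untreated over 13151 genes, the test recovered 65.7% of 1.5-fold, 97.0% of 2-fold and 100% of 4-fold changes, with 14 false among 189 calls. The changed genes were drawn only above a floor in mean level, which leaves out genes as low as Trib3 and Chac1. The simulated data held no LPS effect and no library that stood apart. Alternatives were other scalings, filters, DESeq2 1.42.0, limma 3.58.1 (voom), a fit of the compared groups only, a replicate block and each library left out. Those for the pathway lists were chosen after seeing the data. The members, pathway lists and markers were chosen with earlier results of these data known. Values in every library are given for members among the 5 of their arm with the smallest p in any comparison and past the threshold, and for Atf4, Ddit3, Eif2ak3, Ern1, Xbp1, Atf6 and Hspa5 whatever their p. Chac1 was added after its values were seen. Of a pathway list, up to 3 genes per comparison with the smallest p were eligible. Promoters are RefSeq windows of GRCm38.p6, matched by symbol (36 of 40 genes, 39 windows). Slc7a5, Atf6, Manf and Hyou1 had no match.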

Additional observations from a re-analysis of the deposited data

Results flagged for a closer look

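For 5 genes the platelet difference measured with LPS differed from that measured without it, by the interaction term of edgeR's quasi-likelihood test with Benjamini-Hochberg adjustment over all genes tested. The log2 difference between the platelet effects was −2.21 for Trib3 (adjusted p = 0.0141), −2.07 for Gdf15 (adjusted p = 2.09e-04), −0.99 for Phgdh (adjusted p = 0.0177) and −0.56 for Herpud1 (adjusted p = 0.0302), so that the platelet effect was lower with LPS. It was 0.92 for Ern1 (adjusted p = 0.0282), where the platelet effect was higher with LPS. Both comparisons behind each value rest on 3 libraries a group. In the interaction 0.722% of all genes were lower and 0.859% higher. Gdf15 passed under all alternatives, Trib3 and Phgdh under most, and Herpud1 and Ern1 under fewer, as given above.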

How the results depend on the processing

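Of 65 called member values, 41 were kept under every alternative and 47 under all but upper-quartile factors and library size alone. With library size alone 3 turned sign: Hspa5 with LPS (log2 −0.16), and Atf4 (−0.051) and Sel1l (−0.014) with LPS in platelet-incubated cells. These scalings move the median of all genes in the LPS comparisons, as given above. The cause of the other changes was not tested. In the counts below, small moves under an alternative are not all named.

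In platelet against untreated cells, ATF4 members called higher went from 3 to 0 with only the groups compared (1 to 3 with a library left out), and 0 were lower (0 to 0). ER members called higher went from 2 to 1 with library size alone, no filter, only the groups compared or the block and to 6 with DESeq2 (1 to 4), and those lower from 1 to 0 with DESeq2 size factors, only the groups compared or the block (0 to 3). All genes called went from 854 to 1291 with DESeq2 and 415 with only the groups compared (410 to 1027). In LPS against untreated cells, ATF4 members called higher were 11 (11 to 11), or fewer with upper-quartile factors and library size alone, as given above. Those called lower went from 4 to 7 with these 2 scalings (3 to 4). ER members called higher went from 3 to 1 with library size alone (2 to 3), and those lower from 9 to 17 with upper-quartile factors and 18 with library size alone (7 to 11). All genes called were 6661 (5906 to 7426).

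In platelet plus LPS against LPS cells, ATF4 members called lower went from 6 to 3 with no filter (3 to 7). ER members called higher went from 0 to 1 with upper-quartile factors, no filter, a stricter filter or limma-voom and to 3 with DESeq2 or only the groups compared (0 to 5), and those lower from 1 to 3 with only the groups compared (1 to 3). All genes called were 957 (557 to 1640). In platelet plus LPS against platelet cells, ATF4 members called higher went from 7 to 4 with upper-quartile factors and with library size alone (6 to 7). Those called lower went from 5 to 7 with either (4 to 5). ER members called higher went from 2 to 1 with either (2 to 2), and those lower from 6 to 15 and 18 (6 to 10). All genes called were 6498 (5835 to 6754). In the interaction, ATF4 members called lower went from 3 to 7 with DESeq2 (1 to 5). ER members went from 1 to 0 in each direction with the block (0 to 1). All genes called went from 208 to 371 with no filter, 403 with DESeq2 and 118 with the block (87 to 361).

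With the replicate block, 57 of the 65 called values were kept and 8 lost their call. Same-numbered libraries of different groups correlated at −0.228 to 0.140 in their deviations from the group means (median 0.0019, 18 pairs, 1 over 0.1). Libraries of different number and group correlated at −0.189 to 0.239 (median 0.0210). These values show no pairing by number, but they cannot exclude a small effect shared by same-numbered libraries. Depth limits Chac1, which was at 0.245 to 3.38 CPM, and Vldlr, which was too low to test.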
